A study of Homo sapiens with 6 samples.

Results

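The BCL2 family was followed at the level of messenger RNA in SW480, an established cell line from a human colorectal adenocarcinoma, treated for 24 h with MPM-1 or its solvent. Its members were chosen by gene symbol: BCL2, BCL2L1, MCL1, BAX, BAK1, BID, BAD, BCL2L11, BBC3 and PMAIP1. All 10 were found among the 12982 genes of the count table, and none was lost to a filter on low values. MPM-1, called WT4 in the sample labels, is a fluorescent small molecule made to enter mitochondria. The control group received DMSO alone, both groups are recorded as WT in genotype, and each group had 3 libraries. The dose of MPM-1 for this experiment is not given in the sources used here. Where nothing states that the 3 libraries of a group came from separate cultures, the p-values measure only the spread between these libraries, which may be technical.

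Proteins of this family decide whether the outer mitochondrial membrane is kept intact or opened, which commits a cell to apoptosis. The survival proteins BCL-2, BCL-XL (from BCL2L1) and MCL-1 hold the effectors BAX and BAK in check, and the BH3-only proteins BID, BAD, BIM (from BCL2L11), PUMA (from BBC3) and NOXA (from PMAIP1) either occupy the survival proteins or activate the effectors. MCL-1 is short-lived and NOXA binds it with preference, so these proteins are also set by turnover, which RNA levels do not show. The study examined the proteins of BAX, BCL2 and BCL2L1 by Western blot. The present values answer a different question, namely how the transcripts of survival and pro-apoptotic members moved after MPM-1. In a bulk library, more RNA in every cell and a change in only some of the cells cannot be told apart.

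Among the 10 members, 2 rose and 2 fell after MPM-1, where a call means an adjusted p below 0.05 (edgeR's quasi-likelihood test, adjusted by Benjamini-Hochberg over all 12982 genes). The members that rose were BBC3, which is pro-apoptotic, and MCL1, which favours survival. The members that fell were BID and PMAIP1, both pro-apoptotic. Of the 3 survival members 1 rose, and of the 7 pro-apoptotic members 1 rose and 2 fell. Over all genes tested, 27.7% were higher and 28.8% were lower by the same rule, so the share of members called, 2 of 10 in each direction, was not above that background. When calls needed an adjusted p below 0.01 plus at least a doubling or halving (1 on the log2 scale), BBC3 alone was called, against 5.58% of all genes higher and 8.75% lower. The median log2 fold change of the members was 0.14, beside -0.026 for all genes.

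Because BBC3 rose most, and because PMAIP1 and BAX are pro-apoptotic members with other responses, the sequences around their annotated start sites are shown here from RefSeq (GRCh38.p14). Each window holds 250 bases before the start and 50 after it, written 5′ to 3′ on the strand of the gene, and capitals mark the E-box CACGTG. The BBC3 window is chr19:47232618-47232917 on the minus strand, the BAX window chr19:48954625-48954924 on the plus strand, and the PMAIP1 window chr18:59899746-59900045 on the plus strand.
BBC3: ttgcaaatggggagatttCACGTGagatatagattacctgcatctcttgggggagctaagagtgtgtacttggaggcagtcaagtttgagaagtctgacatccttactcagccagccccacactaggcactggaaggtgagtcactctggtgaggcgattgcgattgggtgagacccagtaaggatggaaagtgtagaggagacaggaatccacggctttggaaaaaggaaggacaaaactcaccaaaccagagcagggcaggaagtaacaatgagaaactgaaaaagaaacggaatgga
BAX: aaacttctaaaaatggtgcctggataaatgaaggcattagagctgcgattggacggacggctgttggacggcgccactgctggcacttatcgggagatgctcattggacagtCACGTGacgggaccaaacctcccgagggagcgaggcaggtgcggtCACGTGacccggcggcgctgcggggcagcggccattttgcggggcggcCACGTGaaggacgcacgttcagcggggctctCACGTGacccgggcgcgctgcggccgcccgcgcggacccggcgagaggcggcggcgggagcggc
PMAIP1: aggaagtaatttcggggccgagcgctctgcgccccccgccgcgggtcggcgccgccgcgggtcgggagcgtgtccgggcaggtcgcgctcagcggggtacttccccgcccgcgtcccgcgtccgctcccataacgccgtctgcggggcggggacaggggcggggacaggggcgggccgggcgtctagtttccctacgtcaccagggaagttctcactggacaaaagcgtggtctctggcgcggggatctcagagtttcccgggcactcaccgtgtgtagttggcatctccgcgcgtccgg

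RefSeq windows were matched for 9 of the 10 members, with 15 windows in all, since BID, BAD and BCL2L1 have several starts. MCL1 was not matched. The BBC3 window held 5 CpG sites and 48.0% G and C, beside medians of 14 CpG sites and 58.7% over all 35116 windows. Of all windows, 33.7% had at most as many CpG sites as the BBC3 window. The BAX and PMAIP1 windows were denser, with 38 and 42 CpG sites. Few CpG sites were not particular to BBC3. The BAK1 window held 7 and a BID window held 6, although BAK1 was not called and BID fell. The remaining windows of the members held 16 or more. On both strands, the E-box CACGTG was found 4 times in the BAX window, at positions -138, -93, -45 and -14 from the start, and 1 time in the BBC3 window, at -232. The same BID site was found in 2 of its overlapping windows, the PMAIP1 window held none, and 7.26% of all windows held it. This motif was added after the sequences had been seen. The letters TGATGNAA, the core of a composite C/EBP-ATF element, and TGACGTCA, the cAMP response element, were in none of the 15 windows, beside 3.62% and 1.85% of all windows.

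The levels of the members differed widely, on the FPKM scale, which is per transcript length and allows genes to be compared. In DMSO, BAD had the highest mean at 129.7 ± 16.99 FPKM (SD, n = 3), followed by BAX at 124 ± 8.27, and the ranges of these neighbours overlapped. BCL2L1 came next at 90.3 ± 10.2 FPKM. MCL1, BAK1, BID and BBC3 lay between 54.9 and 38.6 FPKM, with each neighbour's range overlapping the next. PMAIP1 was at 13.5 ± 0.25 FPKM, and BCL2L11, which encodes BIM, was at 1.77 ± 0.159 FPKM. BCL2 was last, at 0.246 ± 0.11 FPKM, so BCL2L1 and MCL1 made up nearly the whole survival group in these cells at the RNA level.

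**Figure D1:**
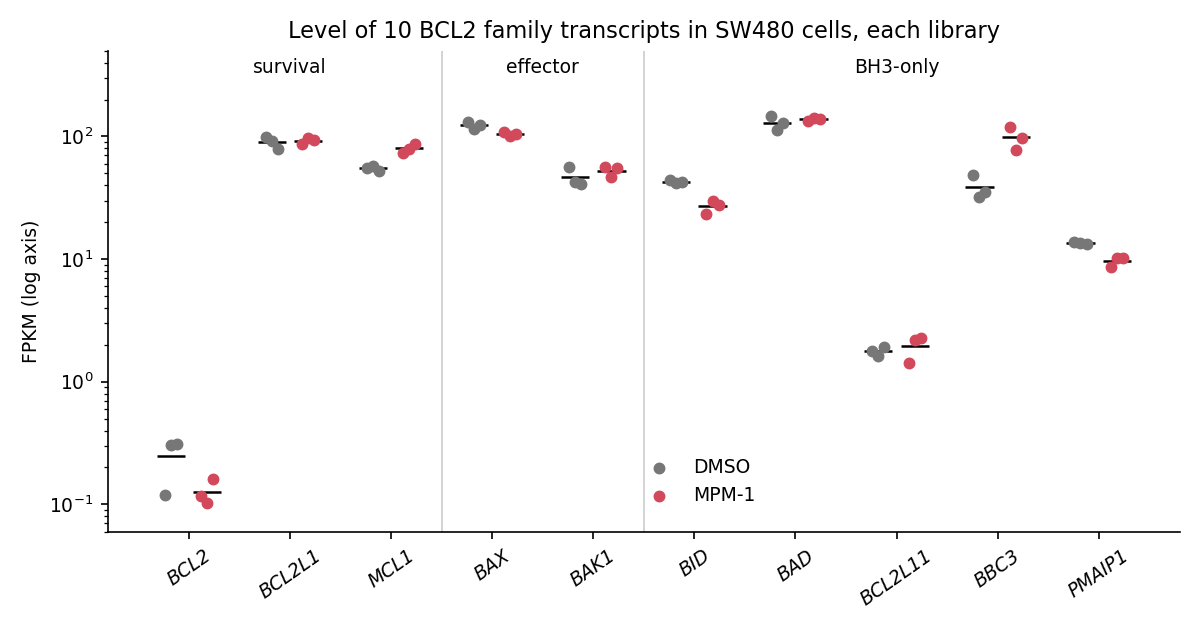
FPKM (log axis) of each of the 10 members in the 3 DMSO libraries (grey) and the 3 MPM-1 libraries (red), with the mean as a bar and the members ordered by role. BBC3 stands at 77.7 to 119 FPKM after MPM-1 against 32.1 to 48.6 in DMSO, and BCL2 does not exceed 0.312 FPKM in any of the 6 libraries.

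After MPM-1, BBC3 changed its place in this order. It moved from rank 7 to rank 3, at 98.2 ± 20.9 FPKM, and its range overlapped those of its neighbours BAX (105 ± 3.46) and BCL2L1 (92.7 ± 4.96). BAD stayed first at 139 ± 4.35 FPKM. BCL2L11 and BCL2 stayed last, at 1.96 ± 0.481 and 0.127 ± 0.0298 FPKM.

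Among the survival members, MCL1 was the one that rose. It had 216, 217 and 199 CPM (read counts put on a shared library-size scale with TMM) in the DMSO libraries and 319, 334 and 373 CPM in the MPM-1 libraries. Every MPM-1 library lay above every DMSO library. This was a fold of 1.63, or 0.70 ± 0.082 (SE) in log2, with an adjusted p of 9.22e-05 (edgeR). MCL1 (ENSG00000143384) lies on chromosome 1 from 150574551 to 150579738 in GENCODE release 29 (GRCh38), and it overlaps ADAMTSL4-AS1 on the same strand, which is not among the genes of the table.

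BCL2L1, which encodes BCL-XL, was abundant and did not pass. It had 245, 221 and 191 CPM in DMSO and 241, 263 and 252 CPM after MPM-1. The first DMSO library lay within the range of the MPM-1 libraries, so the groups overlapped. The log2 fold change was 0.20, with a 95% interval from -0.014 to 0.42 (adjusted p = 0.0998, edgeR). It passed without DMSO replicate 1, at 0.29 (adjusted p = 0.0228, edgeR), and with DESeq2, at 0.22 (adjusted p = 0.0493). The gene count does not separate the long transcript for BCL-XL from the short one for the pro-apoptotic BCL-XS, and the same holds for the splice forms of MCL1 and BCL2L11.

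BCL2, the founding member of the family, was close to the lower end of what these libraries could measure. It had 27, 85 and 78 counts in DMSO and 29, 24 and 38 counts after MPM-1. The first DMSO library resembled the MPM-1 libraries, and the other two stood above them. On the log2 scale the difference was -0.73 with a wide 95% interval, from -1.62 to 0.16 (adjusted p = 0.143, edgeR). Without DMSO replicate 1 it was -1.04 (adjusted p = 0.0295, edgeR), so that library alone decided the call.

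The effector BAX did not pass on counts. It had 130.1, 113 and 117 CPM in DMSO and 130.5, 116 and 124 CPM after MPM-1, and the groups overlapped over most of their range. Its log2 fold change was 0.046, with a 95% interval from -0.14 to 0.23 (adjusted p = 0.660, edgeR). The deposited FPKM gave another picture, at 132, 116 and 123 in DMSO and 109, 102 and 106 after MPM-1, where the groups did not overlap. On that scale limma gave a log2 difference of -0.23 (adjusted p = 0.0225, on log2(FPKM + 1)). The median of all genes was -0.13 on that scale, so BAX lay 0.095 below it, whereas on TMM-scaled counts BAX lay 0.072 above the median of all genes. With counts scaled by library size alone, BAX also lay 0.072 above the median. The direction of BAX relative to the median therefore differed between counts and FPKM. How FPKM was computed is not given in the sources used here, and the cause was not tested.

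BAK1, the other effector, had 120.3, 87.4 and 84.7 CPM in DMSO and 135, 106 and 128 CPM after MPM-1. The first DMSO library lay inside the range of the MPM-1 libraries. For BAK1 the log2 fold change was 0.34 (95% interval 0.020 to 0.65, adjusted p = 0.0666, edgeR). It passed without DMSO replicate 1, at 0.52 (adjusted p = 0.00451), and without MPM-1 replicate 2, at 0.46 (adjusted p = 0.0247), and with the replicate number as a block, at 0.35 (adjusted p = 0.0172). DESeq2 also called it, at 0.36 (adjusted p = 0.0211). BAK1 has the pseudogenes BAK1P1 and BAK1P2 in the annotation, whose reads the counting could have shared.

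BBC3, which encodes PUMA, a BH3-only protein that binds all the main survival proteins, showed the largest response of the family. It had 89.0, 55.2 and 62.5 CPM in DMSO and 243, 149.8 and 195 CPM after MPM-1. The lowest MPM-1 library stood well above the highest DMSO library, while the libraries within each group were unlike one another. This was a fold of 2.85, or 1.51 ± 0.20 (SE) in log2 with a 95% interval from 1.06 to 1.96 (adjusted p = 0.000206, edgeR). Ranked by rise, BBC3 was at place 339 among the 12982 genes. BBC3 (ENSG00000105327) lies on chromosome 19 from 47220822 to 47232766, and 2 microRNA genes, MIR3190 and MIR3191, overlap it.

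BID, which links death receptors to the mitochondrion once caspase-8 has cut it, fell. It had 93.7, 85.5 and 89.4 CPM in DMSO and 58.95, 67.7 and 65.4 CPM after MPM-1. The groups were clearly apart, and the libraries of each group lay close together. This was a fold of 0.715, or -0.48 ± 0.081 (SE) in log2 (adjusted p = 0.000772, edgeR). BID (ENSG00000015475) lies on chromosome 22 from 17734138 to 17774770.

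PMAIP1, which encodes NOXA, also fell, by less. It had 27.0, 25.4 and 25.2 CPM in DMSO and 18.6, 21.4 and 21.6 CPM after MPM-1, and every MPM-1 library lay below every DMSO library. This was a fold of 0.794, or -0.33 ± 0.10 (SE) in log2 (adjusted p = 0.0194, edgeR). The call was lost without DMSO replicate 1, at -0.30 (adjusted p = 0.0522), and without MPM-1 replicate 1, at -0.25 (adjusted p = 0.0709). BBC3 and PMAIP1, both known as stress responsive genes, had calls of opposite sign.

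BAD and BCL2L11 did not pass. BAD, whose protein is held inactive by phosphorylation, ranged from 102 to 149 CPM in DMSO and from 140.2 to 146 CPM after MPM-1, a log2 fold change of 0.22 (95% interval -0.052 to 0.50, adjusted p = 0.148, edgeR). Without DMSO replicate 1, its highest DMSO library, it was 0.38 (adjusted p = 0.00705). BAD overlaps GPR137 on the other strand, and reads of the pair cannot be told apart if strand was not used in counting. BCL2L11 ranged from 7.502 to 8.84 CPM in DMSO and from 6.24 to 11.2 CPM after MPM-1. Its log2 fold change was 0.067 (95% interval -0.42 to 0.55, adjusted p = 0.812, edgeR), the sign turned with library size alone (-0.081) and without MPM-1 replicate 3 (-0.15), and the MPM-1 libraries spread to both sides of the DMSO range.

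**Figure D2:**
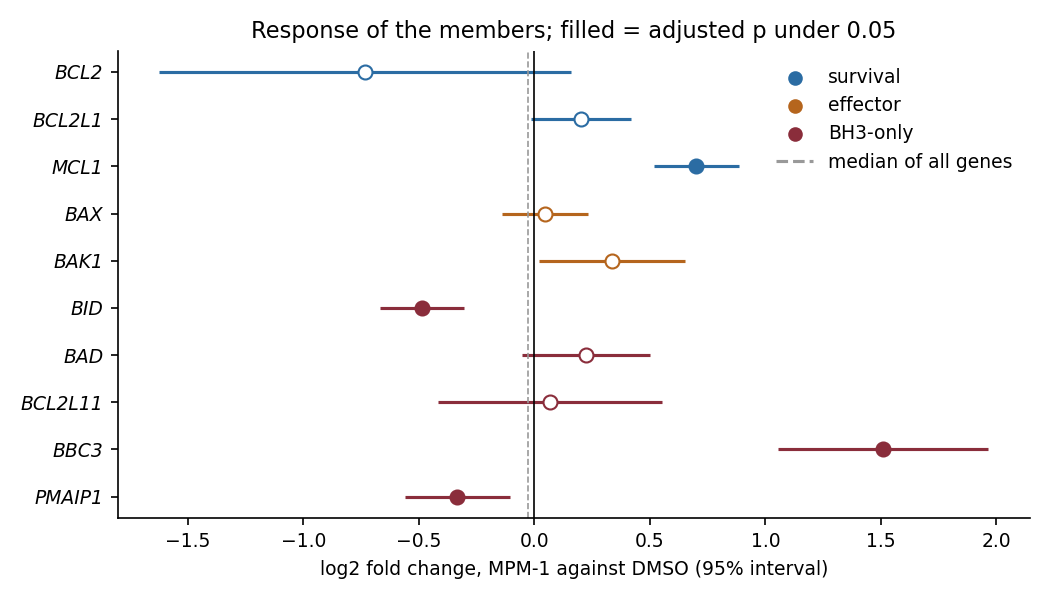
Log2 fold change of each member after MPM-1 with its 95% interval from edgeR's quasi-likelihood fit, coloured by role, with filled points at an adjusted p under 0.05 and a dashed line at the median of all genes (-0.026). BBC3 at 1.51 and MCL1 at 0.70 lie to the right of 0, BID at -0.48 and PMAIP1 at -0.33 to the left, and the BCL2 interval is the widest.

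Of the 10 members, 2 had all MPM-1 libraries above all DMSO libraries in CPM, 2 had them below, and 6 overlapped. Over all genes tested, 31% did not overlap and were higher and 33.3% did not overlap and were lower, so the members were not more often separated than genes in general.

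Whether the family shifted as a whole toward survival or toward death was then described by ratios of summed FPKM within each library. A scaling factor shared by a whole library cancels in such ratios. Differences between FPKM and CPM that vary by gene do not cancel. The ratios are given without a test, since the members had been selected with results known. The summed survival members over the summed effector and BH3-only members gave ratios of 0.35, 0.415 and 0.341 in DMSO and 0.357, 0.432 and 0.412 after MPM-1. The groups overlapped, with means of 0.369 ± 0.0402 and 0.400 ± 0.0386 (SD, n = 3). The survival sum was 145 FPKM in DMSO and 173 FPKM after MPM-1, and the pro-apoptotic sum was 397 and 433 FPKM.

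Within each side, the shares of single genes differed between the groups. These shares restate the rises of BBC3 and MCL1 given above and are no separate result. BBC3 made up 19.1%, 15.9% and 15.7% of the summed BH3-only FPKM in DMSO and 41.7%, 29.6% and 35.1% after MPM-1, with no overlap. MCL1 made up 35.7%, 38.2% and 39.5% of the survival sum in DMSO and 45.7%, 44.97% and 48.3% after MPM-1. The survival members over the effectors alone gave a mean of 0.857 ± 0.0757 in DMSO and 1.10 ± 0.111 after MPM-1, and the groups did not overlap in FPKM. In CPM the same ratio was 1.84, 2.20 and 1.94 in DMSO and 2.12, 2.68 and 2.49 after MPM-1, and the groups overlapped. Over the BH3-only members alone, the means were 0.647 ± 0.0808 and 0.630 ± 0.0590 and the groups overlapped.

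**Figure D3:**
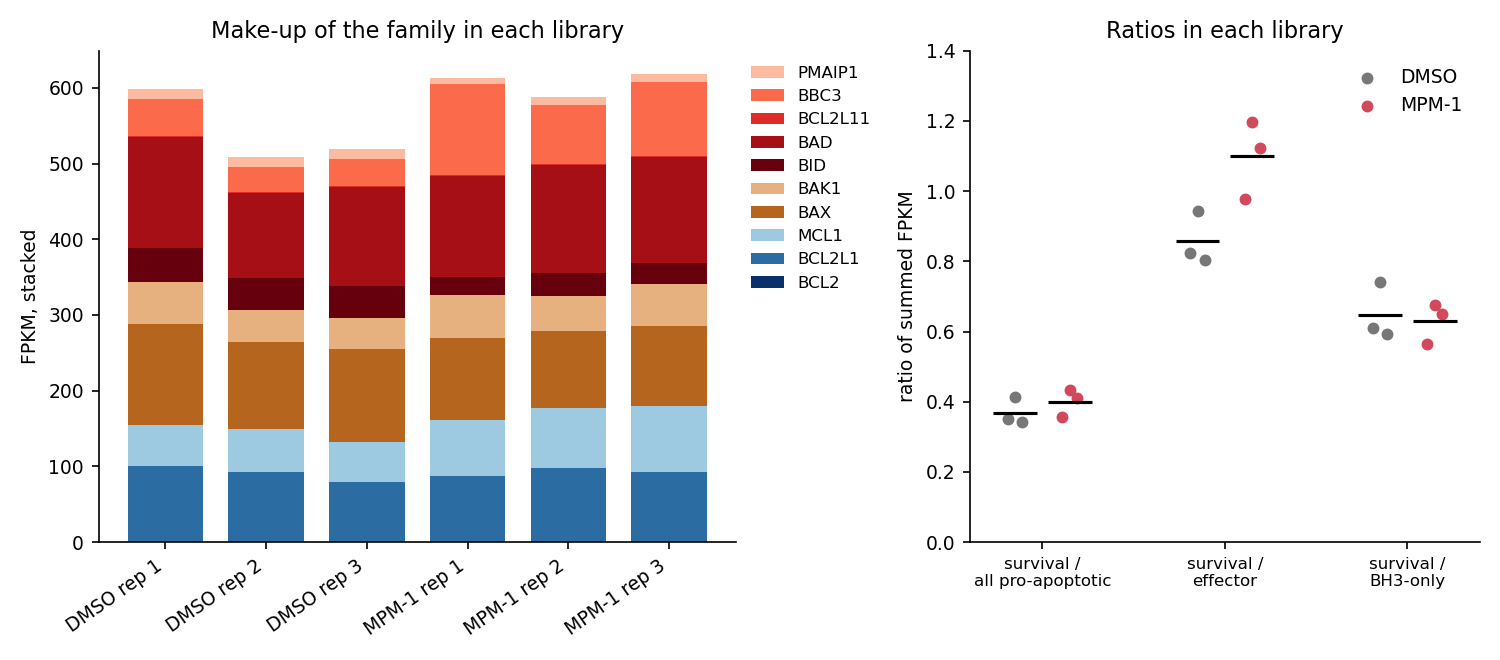
Left, FPKM of the 10 members stacked for each library, blue for survival members, brown for effectors and red for BH3-only members. Right, 3 ratios of summed FPKM in each DMSO library (grey) and MPM-1 library (red), with the group mean as a bar: the groups overlap for all pro-apoptotic members (0.369 and 0.400) and lie apart over the effectors (0.857 and 1.10), where they overlap when CPM is used.

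Pairs of binding partners were compared in the same way, also with no test. BBC3 over MCL1 was 0.876, 0.564 and 0.672 in DMSO and 1.62, 0.974 and 1.12 after MPM-1, and every MPM-1 library lay above every DMSO library. PMAIP1 over MCL1 went the other way, from 0.249, 0.236 and 0.256 to 0.116, 0.129 and 0.117, and the groups lay far apart. That separation was fixed by the genes' own values and adds nothing to them. In FPKM as in CPM, every MPM-1 library had less PMAIP1 and more MCL1 than every DMSO library. BAX over BCL2L1 was 1.33, 1.26 and 1.55 in DMSO and 1.24, 1.04 and 1.13 after MPM-1, where the groups came close without overlapping in FPKM. In CPM the ratio was 0.531, 0.509 and 0.612 in DMSO and 0.541, 0.443 and 0.492 after MPM-1, and the groups overlapped, so the separation held in FPKM alone, the scale on which BAX was lower. BBC3 over MCL1 and PMAIP1 over MCL1 did not overlap between groups in CPM either. The often used BAX over BCL2 was 1103, 377 and 395 in DMSO and 923, 983 and 657 after MPM-1, and the groups overlapped. This last ratio rests on the few reads of BCL2.

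The dependence on single libraries is shown by leaving out each of the 6 in turn. BBC3 stayed between 1.34 and 1.74, MCL1 between 0.65 and 0.76 and BID between -0.52 and -0.41, and these 3 remained called in all 6 fits. DMSO replicate 1 mattered most: without it 5 members were higher (BBC3, MCL1, BCL2L1, BAK1 and BAD), and 2 were lower (BID and BCL2).

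**Figure D4:**
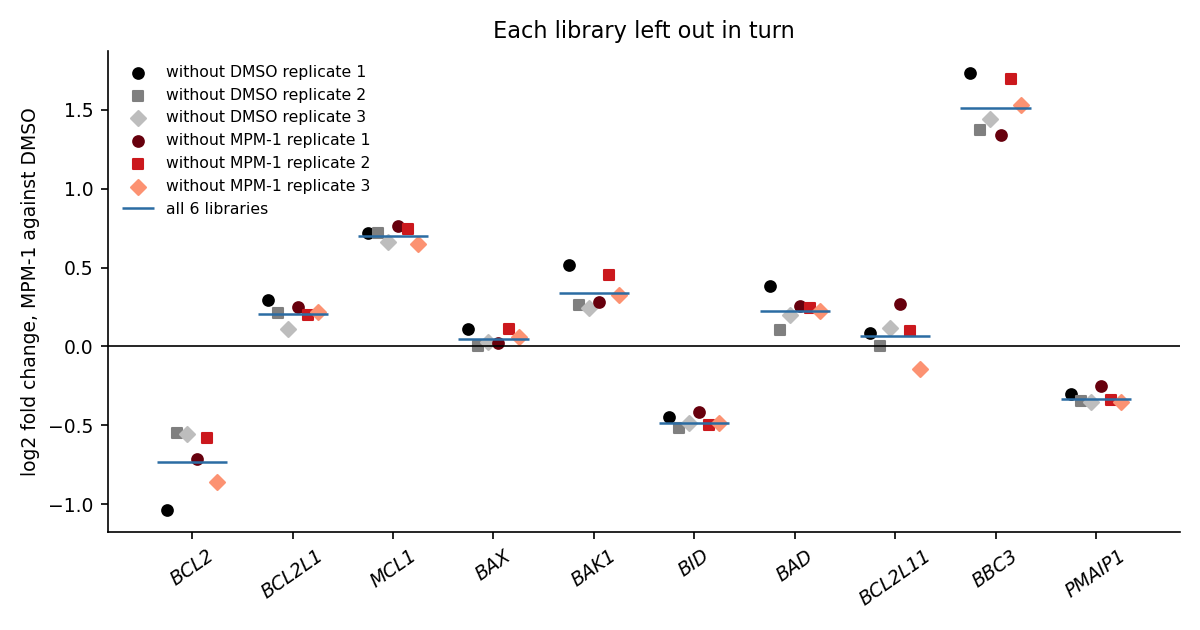
Log2 fold change of each member with 1 library left out (points, 6 fits per member) beside the value from all 6 libraries (blue bar). Without DMSO replicate 1, BCL2 moves to -1.04 and BBC3 to 1.74, and BCL2L11 crosses 0 without MPM-1 replicate 3.

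The genes whose response over the 6 libraries lay nearest to that of BBC3 were RASSF1, ISG15 and RELB. Likeness was the root mean square difference of log2 CPM centred on each gene's mean, at 0.069, 0.092 and 0.10. RASSF1, a tumour suppressor gene of the RAS association family, had a log2 fold change of 1.53, ISG15, an interferon-induced ubiquitin-like modifier, 1.38, and RELB, an NF-kB subunit, 1.51. For BID, the called member with the largest fall, they were RSBN1, ATOX1 and CNNM3, at 0.036 to 0.038. ATOX1, a copper chaperone, had a log2 fold change of -0.44. These distances describe only the shared treatment effect and library noise in 6 libraries.

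Related genes were taken from lists and are described by counts and medians, without a set test, and each count is to be read against the 27.7% of all genes that were higher and the 28.8% that were lower. Of 13 other genes of the BCL2 family, 10 were tested, with a median log2 fold change of 0.17. BCL2A1, BCL2L10 and HRK were not analysed here. Those called, named here after their values were seen, were BCL2L2 (0.51), BCL2L13 (0.22) and BNIP3L (0.78), which rose, and BOK (-0.30), BCL2L12 (-0.55) and BCL2L15 (-0.87), which fell. BCL2L2 encodes the survival protein BCL-W, and BNIP3L encodes NIX, a receptor for mitophagy.

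Of 16 genes for caspases, their regulators and steps after the mitochondrial pore, 2 rose and 7 fell, with a median of -0.20. Over all genes, 27.7% were higher and 28.8% lower. BIRC5, which encodes survivin and is expressed mainly by dividing cells, went from 111 ± 0.424 to 28.5 ± 3.11 CPM (log2 fold change -1.96, adjusted p = 5.66e-07, edgeR). ENDOG, a mitochondrial nuclease, had a log2 fold change of -1.01 (adjusted p = 0.000261). BIRC3, an inhibitor of apoptosis and NF-kB target, had a log2 fold change of 1.17 (adjusted p = 0.00343) from a low level of 2.499 CPM. Others, named here after their values were seen, included DIABLO (0.30), which rose, and APAF1 (-0.89), CASP9 (-0.60), CASP8 (-0.60) and AIFM1 (-0.58), which fell. APAF1 and CASP9 encode the core of the apoptosome. APAF1 was at 5.45, 13.7 and 14.9 CPM in the MPM-1 libraries and at 19.1 to 24.9 CPM in DMSO, so the size of its fall leans on MPM-1 replicate 1.

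Of 8 partners in the mitochondrial membranes, 2 rose and 2 fell, with a median of 0.095, which is near the share of all genes called (27.7% higher and 28.8% lower). HK2, a hexokinase that docks on the outer membrane, had a log2 fold change of 1.09 (adjusted p = 0.000171, edgeR). The other called partners, named here after their values were seen, were VDAC2 (0.61), which rose, and VDAC3 (-0.74) and PPIF (-0.32), which fell. Of 8 genes for the turnover of MCL-1 and BH3-only proteins, 7 were tested, 3 rose and 0 fell, beside the same 27.7% and 28.8% of all genes. These were named after their values were seen: MARCHF5 (0.64), a mitochondrial ubiquitin ligase, BAG6 (0.42) and USP9X (0.24), a deubiquitinase of MCL-1.

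Of 16 genes listed as transcription regulators, 9 rose and 4 fell, with a median of 0.40. Over all genes, 27.7% were higher and 28.8% lower. The number that fell was near that share, and the number that rose was above it. The list was chosen with earlier results of these data known, so that excess cannot be read as a finding. DDIT3, which encodes CHOP, went from 40.4 ± 4.85 to 319 ± 87.2 CPM (log2 fold change 2.98, adjusted p = 3.06e-06, edgeR). ATF3 (3.08), TRIB3 (1.99), KLF6 (1.64), JUN (1.63), FOXO3 (1.52) and ATF4 (1.04) also rose. MYC had a log2 fold change of -1.64 and TP73 of -1.21, and both fell. TP73 was low, at 4.34 to 4.85 CPM in DMSO and 0.788, 2.80 and 2.41 CPM after MPM-1. The size of its fall leans on MPM-1 replicate 1.

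**Figure D5:**
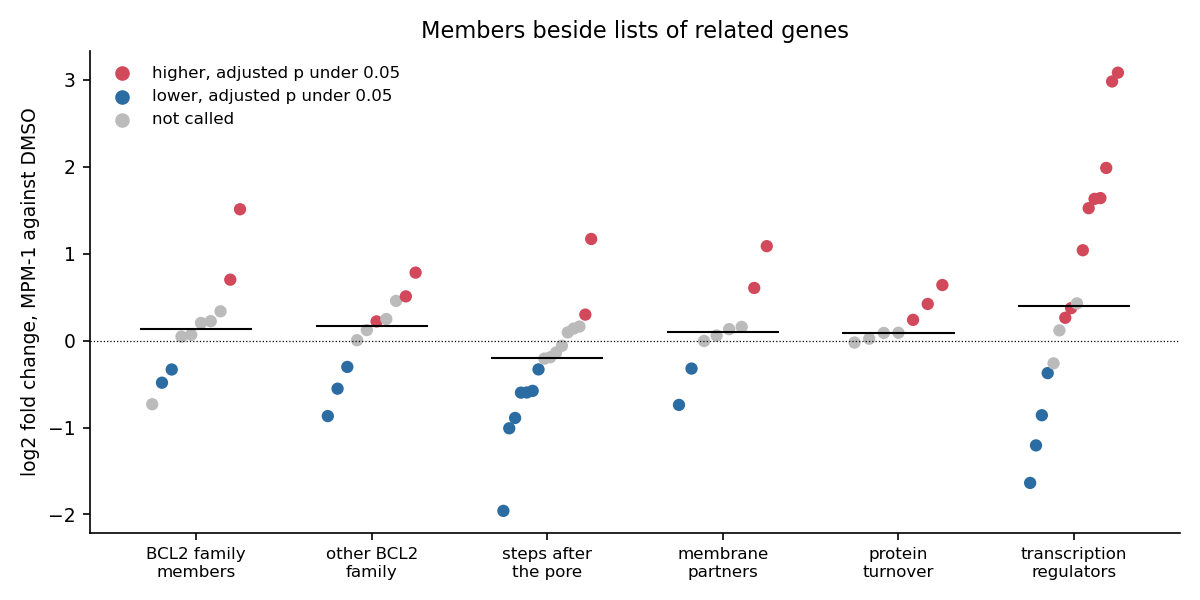
Log2 fold change after MPM-1 of the 10 members and of the genes tested in 5 related lists, each point a gene, red for higher and blue for lower at an adjusted p under 0.05, grey for not called, with the list median as a bar. The list medians run from -0.20 for the list labelled steps after the pore to 0.40 for the transcription regulators. The former also holds caspases that act before the pore, such as CASP8.

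The libraries held 31733667 to 40269820 counts each, so BCL2, with under 100 counts per library, was the only member for which reads were few. Epithelial markers were present, with 8 of 9 tested and a sum of 8351 to 9739 CPM in DMSO and 12224 to 13758 CPM after MPM-1, and CEACAM5 was not analysed here. They did not move together, since 4 rose and 3 fell. KRT8 (0.42), KRT18 (0.89) and KRT19 (0.89), which make up most of the sum, and CDH1 (0.82) rose. The intestinal genes CDX2 (-2.20, from 82.5 to 17.9 CPM), CDX1 (-0.98) and VIL1 (-0.88) fell. Of 8 markers of leukocytes, fibroblasts and endothelium, 2 were in the table, CD68 and COL1A1, with a sum of 60.7 to 88.7 CPM in DMSO and 137 to 153 CPM after MPM-1, nearly all from CD68, a lysosomal gene. The pair moved in opposite directions, as CD68 rose by 1.08 on the log2 scale and COL1A1, a collagen gene of fibroblasts, fell from 2.97 to 0.705 CPM (log2 fold change -2.07, adjusted p = 0.00536, edgeR). None of the defining genes PTPRC, CD3E, DCN, PECAM1 and VWF was analysed here, and the part of other cells in the results was not tested.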

How the data were processed

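RNA sequencing of SW480 cells was analysed, with 3 libraries after DMSO and 3 after MPM-1, grouped by the sample titles. The authors deposited 1 table that gives, per library, a raw read count and an FPKM for every gene, and both units were used as given. The submitters' processing notes name HISAT2 and DESeq2 without versions and the mouse build mm10, although 12127 of the 12982 genes carry human Ensembl identifiers. The counting program, annotation and filter are not given in the sources used here, and every gene has a total of at least 115 counts. The deposited table also holds the authors' log2 fold change and FDR, which were not used.

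Counts were tested with edgeR 4.0.16 in R 4.3.3 (TMM scaling, quasi-likelihood test, Benjamini-Hochberg adjustment over all 12982 genes, no covariates), called at an adjusted p under 0.05. The standard error was taken as the log2 fold change over the square root of F, and intervals are 95%. The test was tried on simulated data in which few genes changed, all by the same size. The real data differ in both respects, so that trial does not bear on the calls given here. Logarithms of CPM used a prior count of 2. The members and lists were chosen with earlier results of these data known. All members are named; of the other lists, those called with a log2 change of 1 or more either way are named, with the 3 genes nearest in pattern to BBC3 and to BID, and a few others are named after their values were seen. The alternatives were DESeq2 1.42.0, its size factors, library size alone, a mean of at least 50 counts, the replicate number as a block, limma 3.58.1 on log2(FPKM + 1) and log2(FPKM + 0.1), a stricter threshold, ratios from CPM, and each library left out in turn. Coordinates come from GENCODE release 29 by identifier and promoter windows from RefSeq. Protein sequences were not used here. Libraries of a group differed beyond sampling noise (chi-square of their counts at least 15.4 per gene). Precision is limited by 31733667 to 40269820 counts per library, covering counting error only.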

Additional observations from a re-analysis of the deposited data

How the results depend on the processing

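BBC3, MCL1 and BID kept their direction and stayed past an adjusted p of 0.05 under every alternative run. The count of higher members was 2 with all libraries and edgeR, 4 with DESeq2 (BCL2L1 and BAK1 added), 1 at the stricter threshold, and 2 to 5 with 1 library left out. The count of lower members was 2, 3 with limma on FPKM at either pseudocount (BAX added), 0 at the stricter threshold, and 1 to 2 with 1 library left out, with 1 without MPM-1 replicate 1. The replicate numbers did not pair the libraries, with correlations of same-numbered libraries of 0.058, 0.11 and -0.091. With a replicate block, 3 members were higher and 2 lower, and the added call was BAK1. BAX turned to -0.10 with library size alone, to -0.23 with limma on log2(FPKM + 1) and to -0.23 with limma on log2(FPKM + 0.1). BCL2L11 turned to -0.081 with library size alone and lay between -0.15 and 0.27 with 1 library left out, with -0.15 without MPM-1 replicate 3. BCL2 has no value under the filter of a mean of 50 counts. The median of all genes was -0.026 with TMM, -0.18 with library size alone, -0.13 on log2(FPKM + 1) and -0.17 on log2(FPKM + 0.1), and relative to it BAX lay at 0.072 with library size alone, as with TMM. The ratio of survival to pro-apoptotic sums was 0.815 in DMSO and 0.881 after MPM-1 on CPM, which is not per length. The other ratios on CPM were chosen after seeing the data, and survival over effectors and BAX over BCL2L1 overlapped between groups there. The survival to pro-apoptotic ratio in FPKM stayed between 0.346 and 0.383 in DMSO and between 0.385 and 0.422 after MPM-1 with 1 library left out. Apart from the differences that scaling makes by construction, the cause was not tested. Depth limits BCL2 most.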
